A study of Mus musculus with 8 samples.

Results

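Double positive thymocytes titled Vbeta5 were compared with those titled overnight control, 2 arrays against 2, out of 8 arrays in 4 groups of 2 (control, overnight control, Valpha2 and Vbeta5). The members were taken by title, and every probe set that is not a spike-in or housekeeping control of the array was read in them on a log2 scale, 12422 probe sets in all. All 8 samples are mouse double positive thymocytes by their source label, and total RNA was measured. The series title says that the T cell receptor was engaged with antibodies; the Vbeta5 and Valpha2 groups are named for variable segments of its beta and alpha chains. The antibody clone, dose, culture time, mouse strain, genotype and age are not stated in the labels used, nor whether the 2 arrays of a group came from separate animals or cultures, so all p-values reflect just the scatter among these samples, and that scatter may be technical.

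Double positive thymocytes carry both CD4 and CD8 and are the stage at which a freshly rearranged T cell receptor is tested on the thymic stroma. Signals through the receptor run through tyrosine kinases to calcium and calcineurin, which send NFAT factors to the nucleus, and to the Ras and MAP kinase pathway, which drives the Egr genes; the recombinase genes are shut off as cells are selected. Receptor signals also reorganise actin at the site of contact, where adhesion receptors hold the thymocyte to other cells, and proliferating or activated T cells are known to change their use of sugars and lipids.

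Of the 12422 probe sets, the 8281 that remained after the dimmest 33.3% were left out were tested. A probe set was called when limma's moderated test, fitted on log2(signal + 17) over all 8 arrays, gave a Benjamini-Hochberg adjusted p under 0.05. With Vbeta5, 29 probe sets were higher than in the overnight control (0.35% of those tested) and 22 were lower (0.266%). They name 28 genes higher and 18 lower; 1 higher and 4 lower probe sets have no single gene symbol. Sizes ran from 1.39 to 4.46 on the log2 scale among those higher and from 1.34 to 3.65 among those lower. Both Vbeta5 arrays lay above both overnight control arrays in 15.9% of the probe sets tested and below both in 15.2%, which is the background for every count of separated arrays below. The calls rest on few arrays. With Vbeta5 array 2 left out, limma called 0 probe sets, with 240 higher and 312 lower at an unadjusted p under 0.05, and with Vbeta5 array 1 left out it called 12 higher and 14 lower. Without overnight control array 1 there were 10 higher and 8 lower calls, without overnight control array 2 there were 27 and 4, and with either control array left out 21 and 13.

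**Figure D1:**
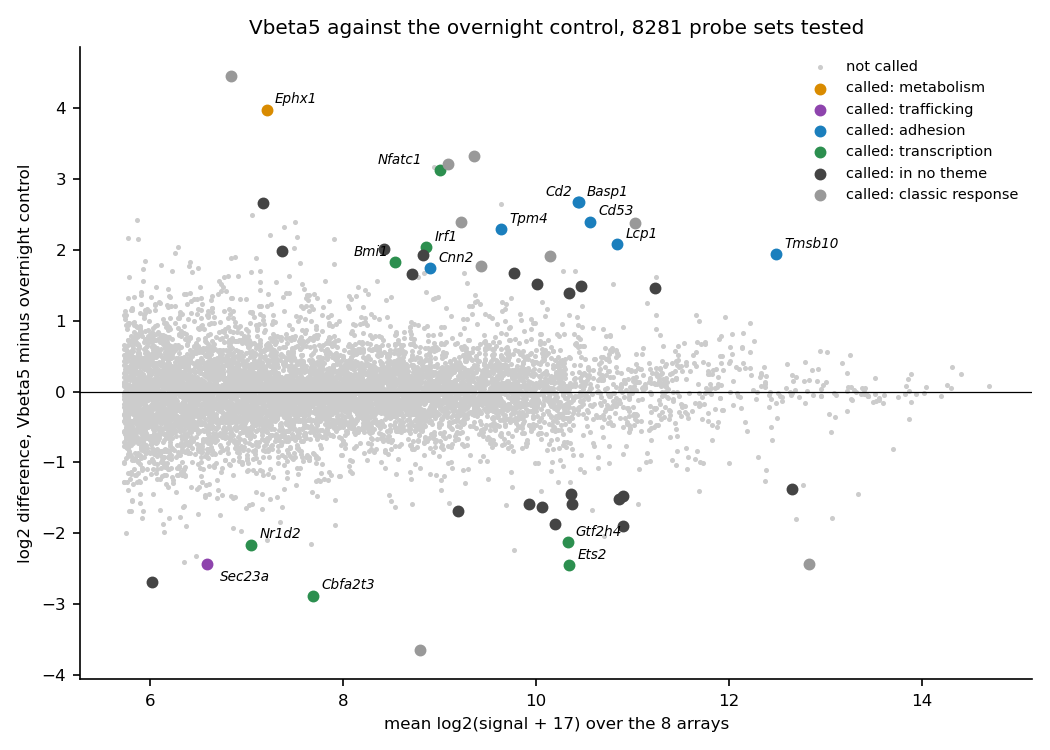
Each point is 1 of the 8281 probe sets tested, with its mean log2(signal + 17) over the 8 arrays on the x axis and the log2 difference, Vbeta5 minus overnight control, on the y axis; coloured points are called genes, by theme. The genes named on the plot run from Cbfa2t3 at -2.88 to Ephx1 at 3.98.

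The arrays were not alike in quality. For Gapdh, the log2 excess of the 3' over the 5' control probe set, which rises as RNA is degraded, was 1.72 for Valpha2 array 1, 0.951 for overnight control array 1 and 0.483 for Vbeta5 array 1, and between -0.282 and -0.0909 on the other 5 arrays. Overnight control array 1 also had the highest median signal, 110.35 against 73.8 to 91.6 elsewhere. The 2 arrays of the overnight control differed more from each other (SD of the log2 difference 0.848, r = 0.867 across probe sets) than the 2 of Vbeta5 (0.612, r = 0.929). A fit chosen after the data were seen left out the arrays numbered 1 of overnight control, Valpha2 and Vbeta5 together. Each of these groups then kept 1 array, so the spread came from the 2 control arrays alone. Those differed least from each other (SD of the log2 difference 0.514). The counts of calls from this fit, listed below with the other settings, therefore cannot be compared with those from all 8 arrays.

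Part of the known response was called in the Vbeta5 arrays. Of 24 classic activation and recombinase genes measured, limma called 7 higher and 2 lower (12 and 7 at an unadjusted p under 0.05). Pdcd1, the inhibitory receptor PD-1, read 553 and 1133 against 13.3 and 27.8 (log2 difference 4.46 ± 0.62 (SE), adjusted p = 0.0143), Egr2 differed by 3.21, Cd5 by 2.38 and Egr1 by 1.92. Itm2a, a membrane protein induced in selected thymocytes, Nab2, a corepressor of Egr factors, and the immediate early gene Ier2 rose too, by 3.32, 2.39 and 1.77 (adjusted p = 0.0116, 0.0345 and 0.0223). Rag2 read 133 and 21.2 with Vbeta5 against 737 and 1185 (-3.65 ± 0.54, adjusted p = 0.0167), and Rag1 differed by -2.44 in one probe set and by -0.06 in its other, which was not called. Of the markers that define these cells, Cd3e, of the receptor complex, read 4669 and 2671 against 2446 and 3382. Cd8a read 3067 and 2143 against 6234 and 6105, and Cd4 1123 and 680.1 against 1985.5 and 3189.5; neither was called (adjusted p = 0.0541 and 0.102). All 12 double positive markers on the array summed to 40090 and 22956 in the Vbeta5 arrays against 70628 and 69563 in the overnight control, 58565 and 60800 in the control and 76229 and 58582 in Valpha2; 2 of the 12, Rag1 and Rag2, were called. In bulk RNA, fewer cells of a type and less RNA per cell cannot be told apart, and the part of this shift in the differences below was not tested. No tested marker on the lists of 8 other cell types was called by limma (1 higher and 4 lower at an unadjusted p under 0.05). Tested were 9 of 10 markers on the array for B cells, 6 of 12 for macrophages and 8 of 12 for dendritic cells. They were 5 of 11 for granulocytes, 6 of 7 for the erythroid list and 4 of 11 for thymic epithelium. For NK and gamma delta T cells they were 3 of 8, and for fibroblast and endothelium 6 of 12. The others were too dim to be tested. The summed signals of all markers on the array were highest on overnight control array 1 in 7 of the 8 lists. The B cell list summed to 3847 and 3364 with Vbeta5 against 5887 and 4686, and the thymic epithelium list to 1440 and 599 against 2766 and 1765. In the other lists the Vbeta5 sums lay between those of the overnight control arrays. The dendritic cell and MHC class II list summed to 1635 and 2006 with Vbeta5 against 2147 and 769. It summed to 978 and 1030 in the control and 1106 and 943 in Valpha2. In the B cell and thymic epithelium lists, few genes made up most of the sums. Ighm alone read 2920 and 2207 against 4488 and 3699, while Pou2af1, another B cell marker, read 179 and 442.5 against 100.6 and 38.8. In the epithelium list, Ctsl read 1035 and 279.6 against 1961 and 1077, and Cldn4 130.8 and 48.2 against 354.4 and 492.6. The sums are thus no measure of cell numbers.

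**Figure D2:**
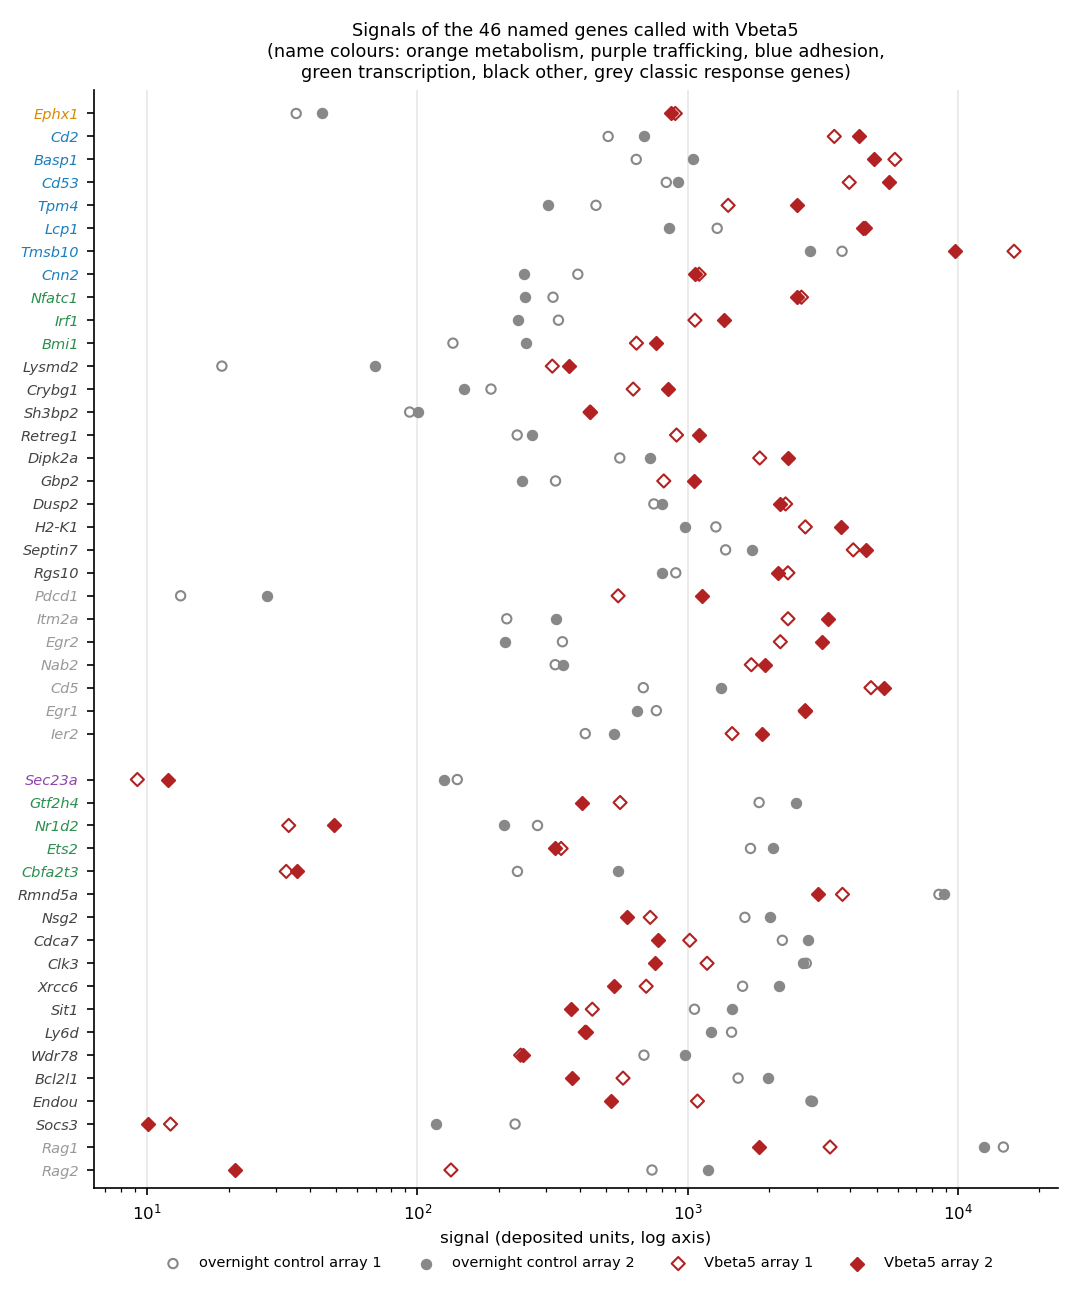
The deposited signal (log axis) of each of the 46 called genes on the 2 overnight control arrays (grey circles) and the 2 Vbeta5 arrays (red diamonds), open for array 1 and filled for array 2, with the 28 higher genes above and the 18 lower ones below. The red and grey symbols of a gene never overlap, and the widest gap among the genes of metabolism, adhesion, trafficking and transcription is that of Ephx1, at 899.5 and 866 against 35.6 and 44.4.

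Metabolism gave 1 call among 287 genes measured, and it was the second largest rise of all. Ephx1, the microsomal epoxide hydrolase that opens reactive epoxides to diols, read 899.5 and 866 in the Vbeta5 arrays, 35.6 and 44.4 in the overnight control, 143 and 26 in the control and 62.8 and 143 in Valpha2. Every array outside Vbeta5 was therefore at or below 143.3, and the Vbeta5 arrays were close to each other. Ephx1 rose by 3.98 ± 0.57 on the log2 scale (SE, adjusted p = 0.0162), 15.8-fold on the scale of signal + 17, which understates the change of dim genes. Its difference from Valpha2 was 2.99 (adjusted p = 0.0755). Over all 287 metabolic genes, both Vbeta5 arrays were higher in 59 and lower in 51, with a median log2 difference of 0.0342 beside -0.0073 over all 6094 named genes, where the counts were 1025 and 967. At an unadjusted p under 0.05 there were 21 higher and 21 lower metabolic genes.

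No gene of glycolysis was called among 17 measured (3 higher and 1 lower at an unadjusted p under 0.05). Of the members named here, Eno3 and Ldhb pointed different ways. Eno3, an enolase isoform, read 525.5 and 676 against 258 and 171 (1.43 ± 0.30, adjusted p = 0.0765). Ldhb, the lactate dehydrogenase subunit that favours pyruvate, read 743 and 729 against 1657 and 1972 (-1.28 ± 0.27, adjusted p = 0.0794). Pfkp, the platelet-type phosphofructokinase, was at 0.70 (adjusted p = 0.433). These uncalled genes were named only because their arrays did not overlap, so that separation is no further result. Among the remaining members, the largest differences were 0.99 for Ldha and -0.67 for Slc16a1, and the median of the list was 0.155. In the pentose phosphate pathway, Tkt, the transketolase that links it to glycolysis, read 1236 and 1303 against 462 and 603 (1.24 ± 0.27, adjusted p = 0.0863), and the control stood between, at 1128 and 818.5. Of the 25 citric acid cycle genes, Idh2, the mitochondrial isocitrate dehydrogenase, was at -1.09 (adjusted p = 0.119), Cs, citrate synthase, at 0.32 and Mdh2, mitochondrial malate dehydrogenase, at 0.37.

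The 3 lipid lists gave 0 calls by limma; at an unadjusted p under 0.05, 1 gene was higher and 4 lower in fatty acid oxidation, 1 and 3 in lipid synthesis and 4 and 2 in the cholesterol list. Cpt1a, the enzyme that admits fatty acids to mitochondria for oxidation, read 1489 and 1735 with Vbeta5, 721 and 868 in the overnight control, 1318 and 1332 in Valpha2 and 342.5 and 426 in the control. Its order over the groups was thus control, overnight control, Valpha2 and Vbeta5 with no overlap between neighbours; the difference of Vbeta5 from the overnight control was 1.01 ± 0.22 (adjusted p = 0.0936) and from Valpha2 0.28 (adjusted p = 0.846). Acadm and Eci2, enzymes of the oxidation cycle itself, were at -0.69 and -0.76. Of 23 oxidation genes, 8 had both Vbeta5 arrays lower and 3 both higher, beside 967 and 1025 of all 6094 named genes. Degs1, the desaturase that completes ceramide, read 296 and 200.1 against 598.5 and 968 (-1.58 ± 0.31, adjusted p = 0.0613). Of 19 cholesterol genes, 8 had both Vbeta5 arrays higher and 3 both lower, with a median of 0.227; the synthesis enzymes Cyp51, Idi1 and Sqle were at 1.21, 1.08 and 0.97 (adjusted p = 0.437, 0.276 and 0.264). Abca1, which exports cholesterol, read 12.1 and 9 against 73.1 and 191 (-2.32, adjusted p = 0.182) in one probe set, while its other differed by -0.02.

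Among 30 nucleotide and 26 amino acid genes there were 0 calls, with 2 higher and 1 lower in each list at an unadjusted p under 0.05. Dck, the kinase that salvages deoxycytidine, read 3326 and 3334 against 6279.6 and 6403, with hardly any spread within either group (-0.93 ± 0.20, adjusted p = 0.0863). Psat1, of serine synthesis, read 431 and 465 against 147 and 153 in the overnight control, 60.2 and 249.6 in Valpha2 and 609.6 and 539.9 in the control, so the Vbeta5 arrays lay above the overnight control and Valpha2 and below the control (1.48, adjusted p = 0.3). Bcat2, which starts the breakdown of branched amino acids in mitochondria, was at -0.98 (adjusted p = 0.189). Among 42 glycosylation genes, 12 had both Vbeta5 arrays higher and 6 both lower, beside 1025 and 967 of all 6094 named genes. Their median was -0.0634. St6galnac4, a sialyltransferase, read 216 and 109 against 28.6 and 37.3 (adjusted p = 0.189), and Man1a, a Golgi mannosidase that trims N-glycans, 224 and 283 against 436 and 532 (adjusted p = 0.227). Man1a was called against Valpha2 (-1.50, adjusted p = 0.0454) though not against the overnight control. Its second probe set differed from the overnight control by -0.28 (adjusted p = 0.967).

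In adhesion and the actin cortex, 7 of 152 genes measured rose and 0 fell (22 higher and 12 lower at an unadjusted p under 0.05), beside 28 and 18 of all 6094. The lists were chosen with earlier results of these data known, so this share is a description only. Both Vbeta5 arrays were higher in 39 of the 152 and lower in 29, beside 1025 and 967 of all 6094. The median of the 152 was 0.0364. The surface members were Cd2 and Cd53. Cd2, the receptor through which T cells bind CD48 on other cells, read 3485 and 4291 against 508 and 688 (2.68 ± 0.38 (SE), adjusted p = 0.0162). Its control arrays read 2263 and 2085, so the overnight control was the low group for this gene, and Vbeta5 was 0.83 above the control. Cd53, a tetraspanin of white blood cells, read 3959 and 5539.9 against 833 and 922, 763 and 898 in the control and 1239 and 1646 in Valpha2 (2.40 ± 0.24, adjusted p = 0.0106). Both were also higher than in Valpha2, Cd2 by 2.40 (adjusted p = 0.0407) and Cd53 by 1.70 (adjusted p = 0.0349).

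The other 5 were among the 58 genes of the actin and adhesion plaque list. Basp1, a lipid-anchored protein of the inner membrane that is tied to the actin cortex, read 5841 and 4898 against 645 and 1044 (2.68 ± 0.37, adjusted p = 0.0143), and its second probe set differed by 1.06 (adjusted p = 0.268). Tpm4, a tropomyosin that coats actin filaments, read 1411 and 2534 against 458 and 305 (2.29 ± 0.32, adjusted p = 0.0143). Lcp1, the actin bundling protein L-plastin, read 4543 and 4435 against 1285 and 851 (2.08 ± 0.26, adjusted p = 0.0116); a second probe set differed by 0.87 and was not called. In all 3 genes both Vbeta5 arrays stood above the other 6 arrays. Tmsb10, a thymosin that holds actin monomers, read 16114 and 9725 against 3723 and 2836 (1.94 ± 0.30, adjusted p = 0.0191), its Vbeta5 arrays being well apart but both above all others. Cnn2, a calponin of actin filaments, read 1102 and 1065 against 392 and 248 (1.74 ± 0.28, adjusted p = 0.0211). Only Basp1 of the 5 was called against Valpha2 as well (2.36, adjusted p = 0.0407), and for the other 4 that difference lay between 1.48 and 1.83 with adjusted p from 0.0526 to 0.0775.

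Other members of these lists went both ways. Both Vbeta5 arrays were higher in 20 of the 58 actin genes and lower in 10, beside 1025 and 967 of all 6094 named genes. The median of the actin genes was 0.13. Anxa2 and Anxa5, annexins that bind membranes when calcium rises, read 2088.5 and 989 against 3526 and 4143 and 903 and 517 against 1775 and 1282 (adjusted p = 0.0901 and 0.202). Marcksl1, a membrane protein that binds actin, was at 1.07 (adjusted p = 0.138). None of the 17 integrin genes was called (1 higher and 2 lower at an unadjusted p under 0.05). Itgb2, the beta chain of LFA-1, read 1374.5 and 1334 against 631.5 and 913, whereas Itgb1, the beta chain of the matrix-binding integrins, read 1976 and 1778 against 2534 and 2857 (adjusted p = 0.261 and 0.549). Cd6, a receptor related to Cd5 that binds CD166, read 4986 and 4319 against 1119 and 1998, and its 2 probe sets differed by 1.62 and 1.70 (adjusted p = 0.239 and 0.119). The semaphorins Sema4a and Sema7a were at 1.89 and -1.26 (adjusted p = 0.222 and 0.188), and their second probe sets differed by 0.42 and -0.59. Of 15 chemokine and homing receptor genes none was called (3 higher and 1 lower at an unadjusted p under 0.05), and Ccr9, the thymocyte receptor for CCL25, read 1026 and 832 against 1421 and 1641 (adjusted p = 0.324).

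Vesicle and protein trafficking gave a single call. Of 310 genes measured, 1 fell and 0 rose (13 higher and 12 lower at an unadjusted p under 0.05), beside 18 that fell and 28 that rose of all 6094; both Vbeta5 arrays were higher in 57 and lower in 53, and the median was -0.03. The called gene was Sec23a, a coat subunit of the vesicles that leave the endoplasmic reticulum. Its dimmer probe set read 9.2 and 11.9 against 140.4 and 125.5 (-2.44 ± 0.41 (SE), adjusted p = 0.0269), and 110.2 and 132.5 in the control and 106 and 174 in Valpha2. The Vbeta5 values lie below the offset of 17, and the brighter probe set of Sec23a read 348 and 328 against 504 and 544, a difference of -0.61 (adjusted p = 0.46). Sec23b, the paralog, was at 0.63 (adjusted p = 0.474). The coat and early secretory list had both Vbeta5 arrays higher in 18 of 53 genes and lower in 7 (median 0.116). Over all 6094 named genes these counts were 1025 and 967. Among those higher in the list were Arf4, a GTPase that recruits coats, at 0.70, and Trappc4, of a tethering complex, at 0.69.

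Further along the route the counts of separated arrays varied by list, beside 1025 higher and 967 lower of all 6094 named genes. The motor proteins had both Vbeta5 arrays lower in 12 of 40 genes and higher in 2 (median -0.229), with Kif23, a kinesin of dividing cells, at 199 and 183 against 391 and 456 (adjusted p = 0.182). Of 38 nuclear transport genes, 13 had both Vbeta5 arrays higher and 3 both lower (median 0.11). Rab GTPases and their regulators showed 3 higher and 9 lower of 36 (median -0.118). At an unadjusted limma p under 0.05, the motor proteins had 1 gene higher and 2 lower. The nuclear transport list had 2 and 0, and the Rab list 1 and 0. Vamp5, a SNARE protein of vesicle fusion, read 159 and 176 against 31.9 and 23.7, and one Valpha2 array overlapped with Vbeta5, those arrays being at 166 and 41 (adjusted p = 0.198 against the overnight control). In the lysosome list, Lipa, the acid lipase, read 660 and 247 against 1720.5 and 921, and Psap, the precursor of the saposins, 2192 and 1996 against 3275 and 4016 (adjusted p = 0.261 and 0.189). The other Psap probe sets differed by -0.21 and -0.55. None of these genes was called.

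**Figure D3:**
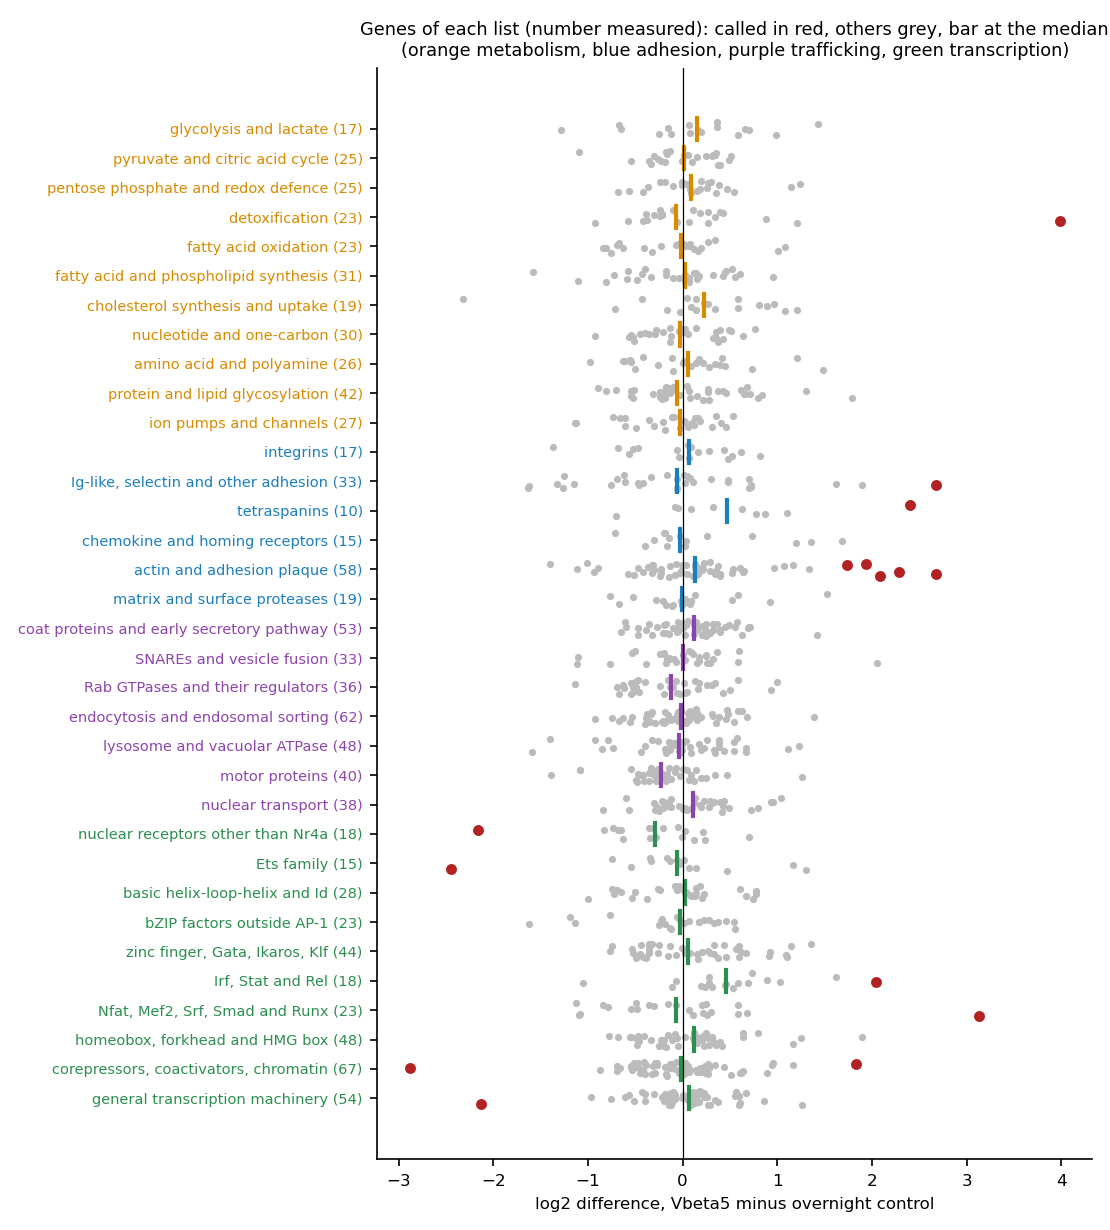
Log2 difference, Vbeta5 minus overnight control, of each measured gene in the 34 lists of metabolism, adhesion, trafficking and transcription, with called genes in red and a bar at the list's median; the number measured follows each list name. Each gene is drawn by its brightest probe set, so the call of Sec23a, in its dimmer one, is not red here. Medians lie between -0.294 (nuclear receptors) and 0.47 (tetraspanins, 10 genes), and 5 red points stand in the actin list.

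Transcription factors and their partners gave calls in both directions, 3 of 338 genes higher and 4 lower, beside 28 and 18 of all 6094. At an unadjusted p under 0.05, 31 were higher and 22 lower; both Vbeta5 arrays were higher in 69 and lower in 58, and the median was 0.00755, beside 1025, 967 and -0.0073 over all named genes. Nfatc1, the calcineurin-driven NFAT factor, read 2634.5 and 2543 against 317 and 249, 287 and 177 in the control and 179 and 683 in Valpha2, and rose by 3.13 ± 0.49 (SE, adjusted p = 0.0191). The 2 Valpha2 arrays were far apart for this gene, and the difference from them was 2.82 (adjusted p = 0.0526). Irf1, an interferon-responsive activator of MHC class I genes, read 1063 and 1366 against 332 and 236 (2.04 ± 0.38, adjusted p = 0.0463). Bmi1, of the Polycomb complex that marks and silences chromatin, read 646 and 760.4 against 135 and 252 (1.83 ± 0.31, adjusted p = 0.0299), but its control arrays, at 519 and 598, were near the Vbeta5 level. Across the Irf, Stat and Rel list, both Vbeta5 arrays were higher in 12 of 18 genes and lower in 1, and the median was 0.457. Irf9, a factor of the interferon response, read 817.5 and 1220.5 against 574 and 405 and 927 and 786 in Valpha2, Irf8 was at 1.62 and Stat4 at -1.05; their adjusted p-values were 0.194, 0.347 and 0.292.

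The factors that fell included an Ets gene, a nuclear receptor, a corepressor and a general factor. Ets2, an Ets factor downstream of Ras and MAP kinase, read 340 and 321.5 against 1707 and 2063, 2011 and 2508 in the control and 2669.7 and 1362 in Valpha2 (-2.45 ± 0.30, adjusted p = 0.0116). It was also lower than in Valpha2 (log2 difference -2.47, adjusted p = 0.0284). Cbfa2t3, a corepressor of the ETO family, read 32.7 and 35.8 against 234 and 552 (-2.88 ± 0.39, adjusted p = 0.0143), and a second probe set differed by -1.73 (adjusted p = 0.267). All 6 arrays outside Vbeta5 read at least 234 in the called probe set. Gtf2h4, a subunit of TFIIH, which serves both transcription and DNA repair, read 562 and 405.5 against 1837 and 2518 (-2.13 ± 0.24, adjusted p = 0.0106), and of the 54 genes of the general machinery it was the only one called. Nr1d2, the circadian repressor Rev-erb beta, read 33.4 and 49.1 against 278 and 208 (-2.16 ± 0.37, adjusted p = 0.0302). Dbp and Tef, bZIP factors of the same clock output, read 13.7 and 34.1 against 114 and 95.7 and 62.9 and 125 against 223 and 212 and were not called (adjusted p = 0.215 and 0.474).

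Several factors known from thymocyte development did not pass the threshold. Lef1, an HMG box factor of the Wnt pathway, read 3538 and 4427 against 1789 and 1530.1, and its 2 probe sets differed by 1.25 and 1.71 (adjusted p = 0.0541 and 0.0863). Zfp36l2, an RNA-binding zinc finger protein that speeds mRNA decay, read 3014 and 3099.7 against 1673 and 1562 in its brighter probe set (0.91 ± 0.19, adjusted p = 0.0791), and its other differed by 0.20. Zfpm1, the Gata partner FOG-1, read 1031 and 1119 against 346 and 481 (adjusted p = 0.0987), and Gata3, which favours the CD4 lineage, 899 and 1263.5 against 411.5 and 579.5 (adjusted p = 0.189). For both, the overnight control differed from the control by -0.99 and -0.81 on the log2 scale, and Vbeta5 by 0.37 and 0.29. Id3, the inhibitor of E proteins that Egr1 induces, was at 0.78, and Tcf12, the E protein HEB, read 2063 and 3081 against 4032.5 and 6373 (adjusted p = 0.244 and 0.215). Xbp1, a factor of the unfolded protein response, was at -1.19 (adjusted p = 0.217).

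Of the called genes in none of the lists, 10 rose and 11 fell. Sh3bp2, an adaptor of immune receptor signalling, read 435 and 433.5 against 93.6 and 101 (1.98 ± 0.37 (SE), adjusted p = 0.0451). Retreg1, a receptor that sends endoplasmic reticulum to autophagy, read 909 and 1098 against 234 and 266 and 486 and 448 in Valpha2 (1.93 ± 0.24, adjusted p = 0.0116). Valpha2 thus lay between the other groups for Retreg1, with no overlap. Dusp2, a nuclear phosphatase that switches off MAP kinases, read 2302 and 2196 against 749 and 800.2 (adjusted p = 0.0414), and Rgs10, which shortens G protein signals, 2348 and 2162 against 903 and 801 (adjusted p = 0.0191). Gbp2, an interferon-induced GTPase, read 815 and 1053 against 324 and 244 (adjusted p = 0.0191). H2-K1, an MHC class I heavy chain, read 2723 and 3685 against 1271 and 977 (adjusted p = 0.0191), but its other probe sets differed by 0.97 and -0.20 and class I genes are alike in sequence, so this value is uncertain. Septin7, of the septin filaments, Crybg1, Lysmd2 and Dipk2a completed the group, at 1.47, 2.02, 2.67 and 1.68.

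Among the 11 that fell, Bcl2l1, the gene of the anti-apoptotic protein Bcl-xL, read 576 and 374.5 against 1536 and 1973, 1557 and 1385 in the control and 1334 and 1639 in Valpha2 (-1.87 ± 0.26, adjusted p = 0.0143). Sit1, a membrane adaptor that dampens receptor signals, read 443.5 and 370.3 against 1059 and 1459 (-1.58 ± 0.24, adjusted p = 0.0191), and Ly6d, a lipid-anchored surface protein, 418 and 421 against 1453 and 1219.5 (-1.63 ± 0.22, adjusted p = 0.0143). For all 3, the 6 arrays outside Vbeta5 read at least 1059. Xrcc6, the Ku70 subunit that joins broken DNA ends, differed by -1.58 (adjusted p = 0.0301), Cdca7, a partner of a chromatin remodeller, by -1.47, Clk3, a kinase of splicing factors, by -1.51, and Rmnd5a, of an E3 ubiquitin ligase, by -1.37. Nsg2, Wdr78 and Endou were at -1.44, -1.68 and -1.90. Socs3, the feedback inhibitor of cytokine receptors that signal through Stat3, read 12.2 and 10.1 with Vbeta5, 229.7 and 117 in the overnight control, 118 and 76.9 in Valpha2 and 14.8 and 13.3 in the control (-2.69 ± 0.49 against the overnight control, adjusted p = 0.0431). The Vbeta5 and control values lie below the offset of 17, and a second probe set differed by -1.97 (adjusted p = 0.292).

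**Figure D4:**
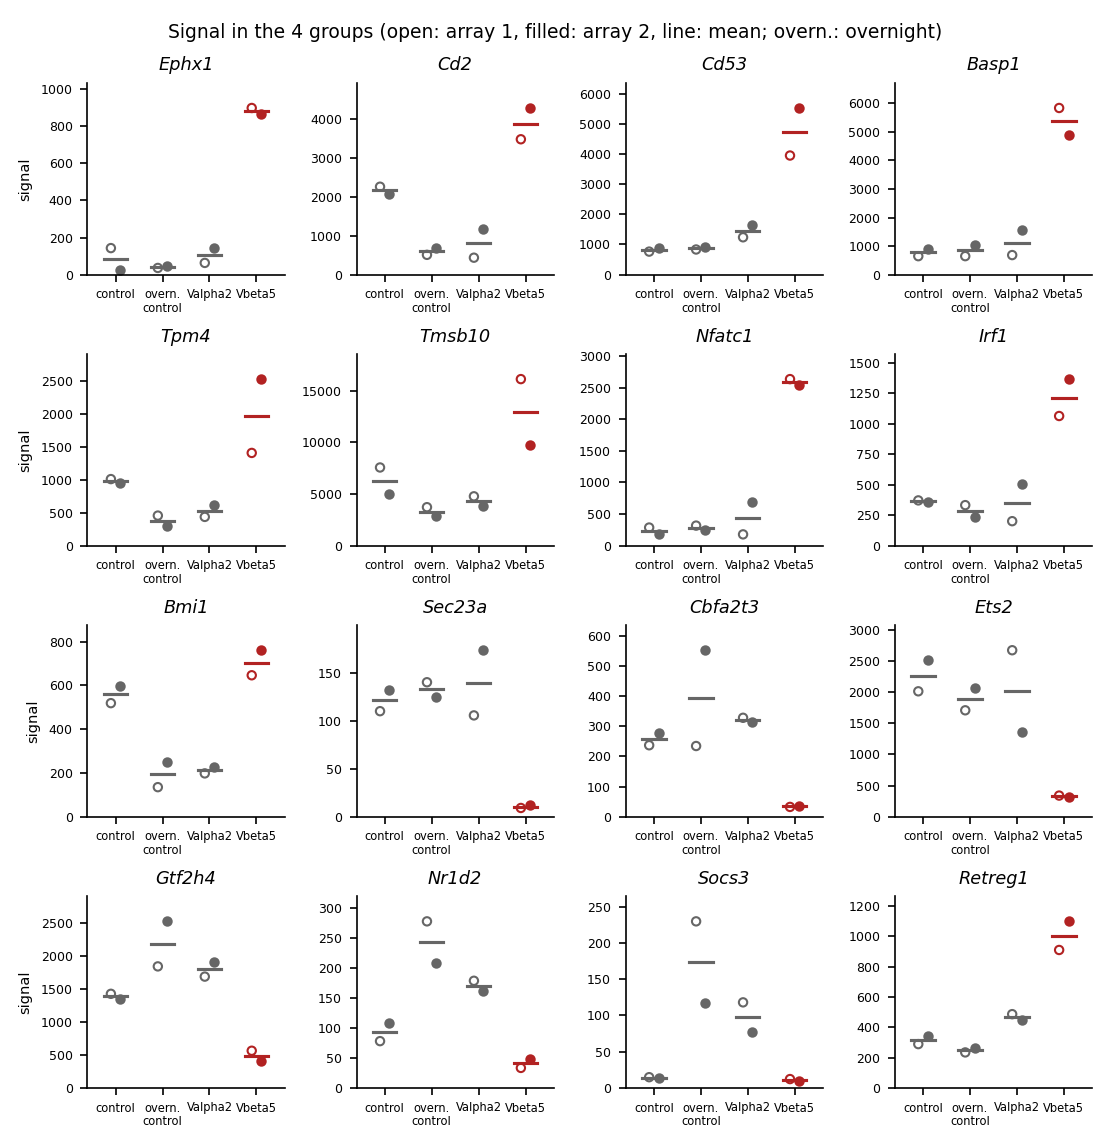
Deposited signal (linear axis from 0) of 16 called genes on the 2 arrays of each of the 4 groups, with Vbeta5 in red, the mean as a line, array 1 open and array 2 filled. For Ets2, Cbfa2t3, Cd53 and Nfatc1 the control and overnight control arrays overlap, whereas for Bmi1 the control is near Vbeta5 and for Socs3 the control, at 14.8 and 13.3, is as low as Vbeta5.

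The level of the control separates the calls further. Both Vbeta5 arrays were higher than both control arrays in 29.3% of all probe sets tested and lower in 19.0%, and all 29 and all 22 called probe sets were among them; since the same Vbeta5 arrays enter both comparisons, this is a description. In 6 of the genes that rose, the overnight control was lower than the control by 1 or more on the log2 scale: Cd2 (-1.85), Lysmd2 (-1.50), Cd5 (-1.50), Bmi1 (-1.50), Tpm4 (-1.35) and Crybg1 (-1.29). Vbeta5 minus control was then 1.17 for Lysmd2, 0.88 for Cd5, 0.83 for Cd2, 0.94 for Tpm4, 0.73 for Crybg1 and 0.32 for Bmi1. In 2 that fell, the overnight control was the higher group by as much: Socs3 (2.55) and Nr1d2 (1.24), with Vbeta5 minus control at -0.14 and -0.92. By contrast Ephx1, Nfatc1, Basp1 and Cd53 differed from the control by 3.44, 3.42, 2.78 and 2.48 beside 3.98, 3.13, 2.68 and 2.40 from the overnight control, and Ets2 and Cbfa2t3 by -2.70 and -2.42 beside -2.45 and -2.88.

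Whether the Vbeta5 level also differed from that of Valpha2 was tested in the same fit. Limma called 8 probe sets higher with Vbeta5 than with Valpha2 (0.0966% of those tested) and 15 lower (0.181%), while both Vbeta5 arrays were higher in 21.8% and lower in 18.6%. Of the 29 called higher against the overnight control, 8 were called here in the same direction, and of the 22 called lower, 13; the 2 comparisons share the Vbeta5 arrays. The higher ones in the themes described were Cd2, Cd53 and Basp1, with Crybg1 (1.74) and Dipk2a (1.53) outside them. The lower ones included Ets2 (-2.47), Cbfa2t3 (-2.72), Gtf2h4 (-1.87), Sec23a (-2.48), Xrcc6 (-1.62), Bcl2l1 (-1.63), Ly6d (-1.72), Sit1 (-1.54), Wdr78 (-1.63) and Nsg2 (-1.33). Without Vbeta5 array 2, without Valpha2 array 1 or with either control array left out, 0 probe sets were called in either direction (from 171 to 310 in each direction at an unadjusted p under 0.05). Without Vbeta5 array 1 the higher calls were 4, without Valpha2 array 2 the calls were 18 higher and 3 lower, and without overnight control array 2 the higher calls were 13.

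Promoters of the called genes were read in RefSeq's table for the GRCm38.p6 build, which spans 250 bases before to 50 after each start site and holds 23 of the genes that rose and 15 of those that fell. Irf1, Gbp2 and Socs3 were chosen for print as called genes known to answer interferon or Stat factors. The 3 stretches, each 150 bases long and ending 31 bases before the start site, are shown with the letters matching a Stat-type palindrome (TTCNNNGAA) or an interferon response motif (GAAANNGAA, here on the opposite strand in Gbp2) in capitals.
Irf1, chr11:53769834-53769983, plus strand: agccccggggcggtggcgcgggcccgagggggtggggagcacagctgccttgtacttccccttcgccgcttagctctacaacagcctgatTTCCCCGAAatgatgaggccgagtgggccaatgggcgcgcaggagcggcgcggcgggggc
Socs3, chr11:117969397-117969546, minus strand: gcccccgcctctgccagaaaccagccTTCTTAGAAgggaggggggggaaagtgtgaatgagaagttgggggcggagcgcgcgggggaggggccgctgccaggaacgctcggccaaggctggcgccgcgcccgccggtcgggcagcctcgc
Gbp2, chr3:142620483-142620632, plus strand: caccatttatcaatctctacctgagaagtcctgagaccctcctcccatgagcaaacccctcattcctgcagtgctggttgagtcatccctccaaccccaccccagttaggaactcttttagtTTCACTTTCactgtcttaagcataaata
The palindrome starts at -90 in Irf1 and at -154 in Socs3, and the interferon motif at -58 in Gbp2. A search of both strands, in which a gene counted once if the window of any of its start sites matched, found the palindrome in 2 of the 23 higher genes (8.7%; Irf1 and Retreg1), in 3 of the 15 lower ones (20%; Socs3, Cdca7 and Nsg2) and in 9.55% of all 27025 genes in the table. The interferon motif was in 4 of 23 (17.4%; Gbp2, Crybg1, Egr2 and Tmsb10), in 1 of 15 (6.67%; Nsg2) and in 9.76% of all genes. The NFAT core GGAAAA, a short motif, was in 5 of 23 (21.7%), 4 of 15 (26.7%) and 26.1% of all. The E-box CACGTG was in 5 of 23 (21.7%; Bmi1, Dusp2, Egr2, Retreg1 and Septin7), 0 of 15 and 8.09% of all genes; the Ets motif CCGGAAG in 0 of 23, 3 of 15 (20%; Bcl2l1, Clk3 and Sec23a) and 9.93%. The other motifs searched were AP-1 (TGANTCA), in 13% of the higher, 6.67% of the lower and 8.97% of all genes, the cyclic AMP element TGACGTCA (4.35%, 0% and 2.03%) and the Egr motif GCGTGGGCG (0%, 0% and 0.707%). In Crybg1 the interferon motif and an NFAT core overlap. A match is a description of letters and not of a bound site.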

How the data were processed

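Total RNA of mouse double positive thymocytes was measured on 8 one-colour arrays, 2 in each of 4 groups taken from the sample titles. The deposited values are probe set signal intensities on a linear scale that the authors had normalized, per the labels; the software, method and summarisation are not stated in the labels. The mean trimmed by 2% at each end was 250.14 to 250.16 on every array. No detection calls, scan dates or background values were used here, and the number of arrays, 2 per group, limits the precision.

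Of 12488 probe sets, 66 array controls were set aside. Of the other 12422, 10833 have 1 gene symbol in the platform annotation, 396 several and 1193 none; 10817 were matched by Entrez ID to current RefSeq symbols (GRCm38.p6). Signals were used as deposited, with 17 added (the 20th percentile of positive values) before log2. Probe sets in the dimmest 33.3%, ranked on their 8-array mean, were not tested. Limma 3.58.1 in R 4.3.3 fitted 4 group means to all 8 arrays (4 residual degrees of freedom, variance trend, two-sided), with Benjamini-Hochberg adjustment over all 8281 probe sets tested. The median standard error of a log2 difference was 0.379. Each listed gene was read from its brightest probe set among those tested, and lists were described by counts and medians without a test. The fit was tested on simulated data.

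Named were all called genes whose arrays did not overlap; from each of the 34 lists up to 3 uncalled members with the smallest p, no overlap and 1 sign in every alternative and probe set; and Rag1, Rag2, Egr1, Egr2, Cd5, Pdcd1, Cd4, Cd8a and Cd3e. The members and lists were chosen with earlier results of these data known. Alternatives changed the normalization, offset, filter, variance trend, replicate block and arrays used.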

Additional observations from a re-analysis of the deposited data

How the results depend on the processing

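Against the overnight control, where 29 probe sets were called higher and 22 lower, quantile normalization, an offset of 8.5, flooring at 17, and leaving out the dimmest 50% or none of the probe sets kept both counts within 1.5 times. Shifting the arrays to a common median gave 18 higher and 10 lower, and the 4 arrays alone gave 21 and 8. Without the variance trend limma called 0 and 0 (322 higher and 318 lower at an unadjusted p under 0.05). Leaving out 1 array gave 0 to 34 higher and 0 to 20 lower. Against Valpha2, with 8 higher and 15 lower, the common median gave 0 and 0 (241 and 311 unadjusted), no trend 0 and 0 (322 and 309 unadjusted), no filter 9 lower, and leaving out 1 array 0 to 18 higher and 0 to 18 lower. Without the arrays numbered 1 of overnight control, Valpha2 and Vbeta5, a setting added after the data were seen, there were 96 higher and 110 lower calls against the overnight control and 25 and 43 against Valpha2. A fit that leaves a group with 1 array assumes that it varies like the others. In the added setting the spread came from the 2 control arrays alone, which differed least from each other. Its counts therefore cannot be compared with those from all 8 arrays and do not show a larger difference. List medians moved by more than the spread between arrays in 26 combinations of list and setting and by less in 620. The causes of these changes were not tested.

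With the array number as a replicate block, 66 probe sets were called higher and 58 lower against the overnight control, including all 46 named genes, and 39 and 51 against Valpha2. The labels do not say what a number marks, and there are 2 numbers, so whether arrays of the same number share anything else is not known. Deviations from the group means correlated at 0.104 to 0.345 across probe sets over the pairs of groups.

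Over 18 alternatives, 8 genes kept their call in 16 (Cd53, Crybg1, Egr1, Egr2, Ets2, Gtf2h4, Lcp1 and Retreg1), and the fewest were 4 of 17 for Socs3, which was not tested in 1 setting, 5 for Sh3bp2 and 6 for Irf1 and Nr1d2. Uncalled list members were named only if their sign held in every alternative, so they could not change sign here. Among the other named genes, only Cd3e, which was not called, changed sign. Its difference of 0.29 ran from -0.11 without Vbeta5 replicate 1 to 0.70 without Vbeta5 replicate 2 when 1 array was left out. It was -0.34 under the added setting.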
